A study of Mus musculus with 4 samples.

Results

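The transcripts described here are those of 10 genes that mark neural stem cells and radial glia: *Sox1*, *Sox2*, *Sox3*, *Pax6*, *Nes*, *Vim*, *Fabp7*, *Slc1a3*, *Prom1* and *Msi1*. They were taken by gene symbol, under a rule that uses no measured value, and all 10 were found among 21091 listed entries. RNA-seq was carried out on 4 libraries of mouse neural progenitors (C57BL/6), with 1 library for each genotype (CTL or *Stat3* cKO) at embryonic day 11 (E11) and 14 (E14). Cells from embryonic brain were grown for 3 days as neurospheres in serum-free medium with EGF and FGF before RNA was isolated. The *Stat3* cKO embryos carried Cre under a rat *Nestin* promoter and enhancer and floxed exons that encode the SH2 domain of STAT3, a transcription factor activated by cytokines. The labels call the control group WT, whereas the animal methods of the study describe Nestin-Cre mice with 1 floxed allele as controls, so a difference between CTL and *Stat3* cKO cannot be told apart from a difference in Cre if the controls lacked it. How many embryos went into each library is not stated in the sources used here. Values were fragments per kilobase of transcript per 1000000 fragments (FPKM), which are scaled by transcript length and so allow levels of different genes to be compared. With no replicates there was no error to set against any ratio, no test was run, and each ratio below compares 2 libraries. Where 4 values stand in a row, they follow the order E11 CTL, then E11 *Stat3* cKO, then E14 CTL, then E14 *Stat3* cKO.

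Radial glia are the stem cells of the developing brain: their cell bodies divide at the ventricle, and their long processes reach the pial surface and guide newborn neurons. They arise from neuroepithelial cells, which already express the SOXB1 transcription factors, PAX6 and nestin, and they take on astroglial traits such as the brain fatty acid binding protein FABP7 and the glutamate transporter GLAST, encoded by *Slc1a3*. The same genes are widely used to identify progenitors in neurosphere culture. The comparison of genotypes asks how the transcriptome depends on STAT3, and the comparison of stages asks how progenitors of early and mid neurogenesis differ.

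*Stat3* itself was listed at 7.41, 6.74, 27.6 and 9.55 FPKM, so the library labelled *Stat3* cKO lay below its control at E14 and close to it at E11. A value for the whole gene cannot show the loss of a few exons, so deletion at E11 was not shown by these files. The FPKM values of a library summed to between 806587 and 1461770, and the 10 highest entries held 36.0 to 49.9% of that sum. The Y-linked gene *Ddx3y* was at 25.1 FPKM in E14 *Stat3* cKO and between 0 and 0.057 in the other 3 libraries, while *Xist*, the RNA of the inactive X chromosome, was at 0.037 in E14 *Stat3* cKO and between 13.6 and 46.9 elsewhere, so genotype and the sex of the embryos cannot be told apart at E14, nor can stage and sex between the *Stat3* cKO libraries. Endothelial and mesenchymal markers set the stages apart: 8 of them summed to 961 and 881 FPKM in the E11 libraries, led by *Col3a1* at 674 and 586, but to 10.6 and 7.37 at E14, and 7 of the 8 reached 1 FPKM in each E11 library. Microglia and leukocyte markers were near 0 throughout, with 6 genes summing to between 0.350 and 3.74 FPKM and *Aif1* at 0 in E14 CTL. The 10 stem and radial glia genes summed to 1507 and 1635 FPKM at E11 and to 7402 and 7900 at E14, where *Fabp7* alone was at 5245 and 5929. Each of the 10 was at least 4.25 FPKM in every library, so no defining marker of the labelled cells was missing. Markers of other cells stood beside them at both stages. Besides the mesenchymal markers at E11, neuron markers summed to 799, 830, 1253 and 1030 FPKM, and oligodendrocyte lineage markers to 560 and 532 at E14.

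**Figure D1:**
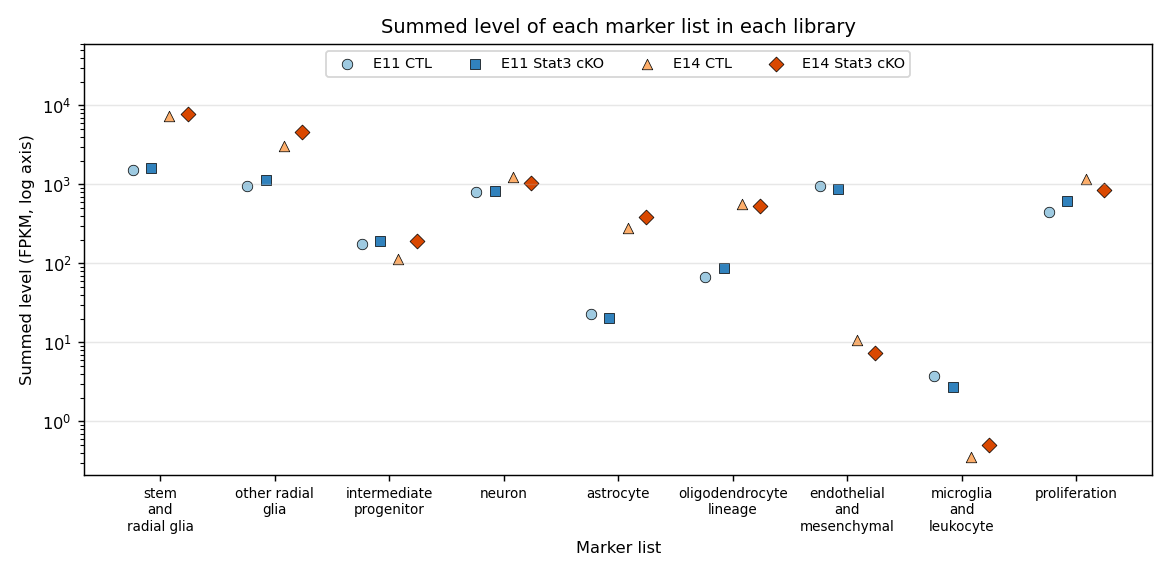
Summed FPKM (log axis) of 9 marker lists in each of the 4 libraries, 1 point per library. The 10 stem and radial glia genes sum to between 1507 and 7900 FPKM, with *Fabp7* alone at 5245 and 5929 in the E14 libraries. Endothelial and mesenchymal markers sum to 961 and 881 at E11 but 10.6 and 7.37 at E14, neuron markers to between 799 and 1253, and microglia and leukocyte markers to 3.74 at most.

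Levels of the 10 genes covered a wide range within a library. In E14 *Stat3* cKO, *Fabp7* at 5929 FPKM was rank 24 of 21091 entries, whereas *Msi1* at 7.03 was rank 7906. Both E14 libraries gave the same order, which ran *Fabp7*, *Vim*, *Sox2*, *Slc1a3*, *Nes*, *Prom1*, *Sox3*, *Pax6*, *Sox1* and *Msi1*. The order at E11 differed from it in several places. *Vim* led in E11 CTL at 582 FPKM, ahead of *Fabp7* at 516, and *Sox3* was last at 6.98. *Pax6* stood at position 5 there and *Nes* at position 6, and these neighbours changed places in E11 *Stat3* cKO, where all other positions were kept. Without replicates it cannot be said which neighbours in these orders differ beyond the spread between samples. Some gaps were small, such as those between *Sox2* and *Slc1a3* in E14 CTL, both at 206 FPKM, and between *Msi1* and *Sox1* in E11 *Stat3* cKO, at 21.8 and 21.4.

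**Figure D2:**
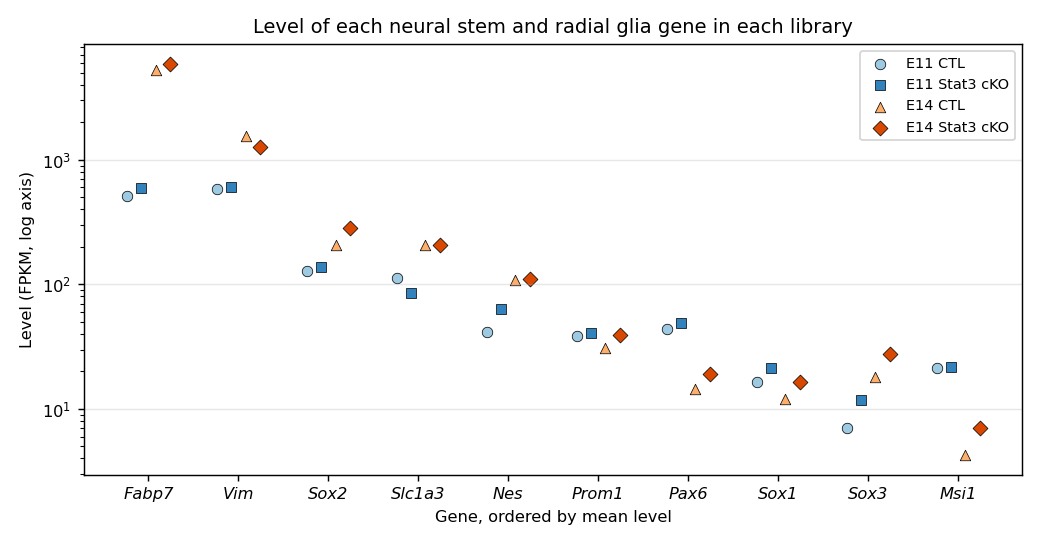
FPKM (log axis) of each of the 10 genes in the 4 libraries, 1 point per library, with genes ordered by their mean level. *Fabp7* spans 516 to 5929 FPKM and *Msi1* spans 4.25 to 21.8, with the E14 libraries higher for *Fabp7* and lower for *Msi1*.

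The SOXB1 transcription factors SOX1, SOX2 and SOX3 bind DNA through a shared HMG domain and hold progenitors in an undifferentiated state. *Sox2* (listed on chromosome 3, 34459302 to 34576915) was at 128 FPKM (CTL) and 138 (*Stat3* cKO) at E11, and at 206 and 284 at E14. Its *Stat3* cKO to CTL ratio was 1.08 at E11 and 1.38 at E14, where the *Stat3* cKO library was the highest of the 4. Its level at E14 was 1.62 times that at E11 in CTL and 2.05 times in *Stat3* cKO. In bulk RNA of whole cultures, here and for every gene below, fewer or more progenitors and less or more RNA per progenitor cannot be told apart. *Sox1* (chromosome 8, 12385770 to 12436732) was at 16.4, 21.4, 12.0 and 16.4 FPKM. Each *Stat3* cKO library was above its control for *Sox1*, by 1.31-fold at E11 and 1.36-fold at E14, and each E14 library was below its E11 counterpart. *Sox3* (chromosome X, 58144540 to 58146605) was at 6.98, 11.7, 18.0 and 27.6 FPKM. It had the highest genotype ratio of the 10 genes at E11, 1.67, and a ratio of 1.53 at E14. At E14 the X-linked *Sox3* was thus higher in the library with *Ddx3y* and without *Xist*, and the part of embryo sex in that ratio was not tested. Between stages *Sox3* was at 2.58 times its E11 level in CTL and at 2.36 times in *Stat3* cKO, where the stages also differ in *Ddx3y* and *Xist*.

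Within the SOXB1 group, *Sox2* made up 80.7 to 87.3% of the summed FPKM in every library. *Sox1* and *Sox3* exchanged places between the stages: *Sox1* held 10.8 and 12.5% of the sum at E11 but 5.09 and 4.99% at E14, and *Sox3* went the other way from 4.63 and 6.82% to 7.62 and 8.42%. The ratio of *Sox1* to *Sox3* was accordingly 2.34 and 1.83 in the E11 libraries, CTL named first, and 0.668 and 0.593 in the E14 libraries. These ratios are taken within a library, so no scaling between libraries alters them.

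*Sox1*, *Sox2* and *Sox3* each have 1 exon, as did 2.80% of the measured genes with an annotated transcript, and the *Sox3* transcript, at 66.4% GC, was richer in GC than 99.7% of them. *Sox2* and *Sox1* start in sequence rich in CG dinucleotides, which is common for developmental transcription factors. RefSeq promoter windows of 300 bases (250 before the start site and 50 after it, build GRCm38.p6) were available for 8 of the 10 genes, and the *Sox1* and *Sox2* windows held the most CG, 37 and 27 against a median of 7 over 32851 windows. The *Sox2* window is printed to show this composition, with each CG in capitals (chr3:34649745-34650044, plus strand).
Sox2: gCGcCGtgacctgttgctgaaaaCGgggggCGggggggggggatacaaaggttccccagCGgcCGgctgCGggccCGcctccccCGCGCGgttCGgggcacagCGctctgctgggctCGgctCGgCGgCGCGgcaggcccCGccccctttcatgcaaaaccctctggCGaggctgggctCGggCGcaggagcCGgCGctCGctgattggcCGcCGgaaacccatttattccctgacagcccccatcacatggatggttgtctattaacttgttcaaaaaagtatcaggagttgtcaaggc
The window of *Fabp7*, the gene with the highest mean level and the highest stage ratio, is printed for contrast and held only 6 CG (chr10:57784673-57784972, plus strand).
Fabp7: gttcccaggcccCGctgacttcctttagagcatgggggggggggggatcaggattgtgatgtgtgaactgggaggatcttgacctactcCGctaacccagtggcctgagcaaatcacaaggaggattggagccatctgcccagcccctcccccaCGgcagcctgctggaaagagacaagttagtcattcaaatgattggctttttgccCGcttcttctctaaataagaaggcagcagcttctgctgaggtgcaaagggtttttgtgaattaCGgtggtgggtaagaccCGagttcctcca
Its GC content was 54.0%, against 66.3% for *Sox2*, 70.7% for *Sox1* and a median of 52.7% over all windows.

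Entries with overlapping loci limit what can be said of 3 of the genes. The listed span of *Sox2* is shared with an entry that joins *Mir1897* and *Sox2ot*, a long RNA whose gene contains *Sox2*, and this entry was at 16.5, 15.3, 12.7 and 22.1 FPKM. *Gm5607* shared the span of *Sox1* at 3.14, 3.37, 1.14 and 1.86 FPKM. *Pax6os1* shared that of *Pax6* at 0.694, 0.801, 0.201 and 0.125 FPKM. Whether strand was used in the quantification is not given in the sources used here, so reads of overlapping transcripts cannot be told apart, although each partner entry lay at least 5.21 times below its protein-coding gene in every library.

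PAX6, a paired-domain transcription factor, drives radial glia of the dorsal forebrain towards neurogenesis. *Pax6* (chromosome 2, 105376236 to 105537521) had 44.2 FPKM (CTL) and 48.6 (*Stat3* cKO) at E11, but 14.6 and 19.0 at E14. Both E14 libraries lay well below both E11 libraries, by 3.03-fold in CTL and 2.56-fold in *Stat3* cKO. The genotype ratio was 1.10 at E11 and 1.30 at E14. *Sox2* and *Pax6* moved apart between the stages, and the ratio of *Sox2* to *Pax6* was 2.89 and 2.85 at E11 against 14.1 and 15.0 at E14. Of the other 8 *Pax* genes only *Pax3*, which marks dorsal neural tube and neural crest, averaged at least 1 FPKM, with 3.57 and 2.59 FPKM at E11 and 0.0066 and 0.050 at E14.

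MSI1 is an RNA-binding protein that represses translation of the Notch inhibitor *Numb* in progenitors. *Msi1* (chromosome 5, 115879693 to 115904211) was at 21.2 and 21.8 FPKM in the E11 libraries, and at E14 at 4.25 in CTL against 7.03 in *Stat3* cKO. It was the gene with the lowest stage ratio of the 10, with the E14 level 4.98-fold lower in CTL and 3.10-fold lower in *Stat3* cKO. It also had the highest genotype ratio at E14, 1.65, against 1.03 at E11. Its paralogue *Msi2* was at 63.7, 71.2, 81.7 and 77.4 FPKM, so that *Msi2* exceeded *Msi1* by 3.01-fold and 3.27-fold at E11 and by 19.2-fold and 11.0-fold at E14.

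Nestin and vimentin form the intermediate filaments of radial processes. *Nes* (chromosome 3, 87775014 to 87784373) was at 41.2 FPKM (CTL) and 63.4 (*Stat3* cKO) at E11, and at 109 and 111 at E14. The genotypes thus differed at E11, by 1.54-fold, and were nearly equal at E14, with a ratio of 1.02. All 6 proliferation markers (*Mki67*, *Top2a*, *Pcna*, *Mcm2*, *Ccnb1*, *Cdk1*) were also higher in *Stat3* cKO at E11, with a median of 0.53 on the log2 scale and sums of 453 and 625 FPKM, whereas 5 of the 6 (4 under 3 of the other scalings) were lower at E14, with sums of 1157 and 841. Of all entries 61.8% were higher in *Stat3* cKO at E11 and 60.1% lower at E14. The part of these proliferation markers in the *Nes* ratio was not tested. *Vim* (chromosome 2, 13495937 to 13504453) was at 582, 609, 1556 and 1259 FPKM. As deposited it was the only one of the 10 genes that was lower in *Stat3* cKO at E14, with a ratio of 0.809, joined there by *Nes* and *Slc1a3* when libraries were scaled to the same sum. At E11 its ratio was 1.05, or a log2 of 0.07 that turned to -0.06 under upper-quartile scaling. Vimentin is also a filament of mesenchymal cells, whose markers were abundant at E11 and near 0 for most at E14, and *Vim* was 2.67-fold higher at E14 in CTL and 2.07-fold higher in *Stat3* cKO. *Vim* exceeded *Nes* by 14.1-fold and 9.61-fold at E11 and by 14.3-fold and 11.3-fold at E14, with the smaller excess in the *Stat3* cKO library at each stage.

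Other intermediate filament genes differed from these. *Gfap*, the filament of astrocytes, was at 0.124, 0.0625, 0.901 and 0.186 FPKM, below 1 FPKM in every library. The neuronal filament genes that averaged at least 1 FPKM were lower at E14 than at E11 in both genotypes: *Ina* was at 23.0, 19.5, 10.7 and 10.1 FPKM, *Nefl* at 28.9, 26.6, 21.4 and 14.7, and *Nefm* at 6.55, 6.11, 1.38 and 1.39. Of 10 other neuron markers (*Tubb3*, *Dcx*, *Map2* and others), 8 were higher at E14 and 2 lower in CTL, against 60.5% of all entries higher. In *Stat3* cKO 7 were higher and 3 lower, against 53.3%. With each library scaled to the same sum, 5 of these 10 were higher in CTL and 2 in *Stat3* cKO.

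FABP7 carries long-chain fatty acids in radial glia, and its gene is a target of Notch signalling. *Fabp7* (chromosome 10, 57504728 to 57508256) stood at 516 FPKM (CTL) and 594 (*Stat3* cKO) at E11, and at 5245 and 5929 at E14. The E14 level was 10.2 times that at E11 in CTL and 9.98 times in *Stat3* cKO, the highest stage ratio of the 10 genes in each genotype. Between genotypes the ratios were 1.15 and 1.13. In the ranking of all entries *Fabp7* stood at 170 and 160 in the E11 libraries and at 22 and 24 in the E14 libraries. Of its relatives, *Fabp5* was at 205, 257, 736 and 592 FPKM and *Fabp3* at 18.1, 14.5, 21.3 and 20.4. *Fabp7* is a short transcript of 880 bases, shorter than all but 3.21% of the measured genes with an annotated transcript.

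GLAST clears glutamate from the extracellular space and is kept as radial glia become astrocytes. *Slc1a3* (chromosome 15, 8584123 to 8660807) was at 112 FPKM (CTL) and 85.5 (*Stat3* cKO) at E11, and at 206 and 207 at E14. As deposited it was the only one of the 10 genes that was lower in *Stat3* cKO at E11, with a ratio of 0.762, joined by 4 others under upper-quartile scaling, and it was equal between genotypes at E14 to within 1.01-fold. The E14 level was 1.83-fold higher in CTL and 2.42-fold higher in *Stat3* cKO. *Fabp7* exceeded *Slc1a3* by 4.60-fold and 6.95-fold at E11 and by 25.5-fold and 28.6-fold at E14, so these 2 astroglial genes did not keep a fixed proportion. Astrocyte markers (*Gfap*, *Aqp4*, *Aldh1l1*, *S100b*, *Slc1a2*, *Aldoc*) summed to 23.0 and 20.3 FPKM at E11 and to 282 and 389 at E14, and their part in the stage ratios was not tested. Of the other transporters of the family *Slc1a1* was at 2.03, 2.62, 10.9 and 11.4 FPKM, *Slc1a2* at 9.73, 8.73, 4.42 and 5.07, *Slc1a4* at 55.1, 31.4, 34.4 and 30.8, *Slc1a5* at 18.7, 16.0, 11.9 and 6.92 and *Slc1a6* at 1.51, 1.59, 1.77 and 1.89.

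The *Slc1a3* promoter window was the only one of 10 windows (some genes have several start sites) with the letters TTCNNNGAA, the core to which STAT factors bind. The match, in capitals, starts 96 bases before the start site (chr15:8710758-8711057, minus strand, GRCm38.p6, RefSeq).
Slc1a3: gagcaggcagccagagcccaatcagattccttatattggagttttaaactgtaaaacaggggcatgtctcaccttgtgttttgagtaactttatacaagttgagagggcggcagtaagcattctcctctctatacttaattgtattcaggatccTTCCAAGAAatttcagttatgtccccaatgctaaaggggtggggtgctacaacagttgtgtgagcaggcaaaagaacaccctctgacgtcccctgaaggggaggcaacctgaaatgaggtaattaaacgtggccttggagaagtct
The same letters occurred in 8.30% of all 32851 windows. Neither ATTGTT, a core bound by SOX proteins and found in 10.7% of all windows, nor GTGGGAA, bound by the Notch effector RBPJ and found in 6.38%, occurred in any of these 10 windows. Both strands were searched. The letters of TTCNNNGAA and GTGGGAA cannot overlap each other, whereas ATTGTT can share an end with either. *Sox3* and *Msi1* had no window. A match of letters is a description of the window and says nothing of binding in these cells. The *Slc1a3* window was also the poorest in GC of the 10, at 45.3%.

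PROM1 (CD133) is a membrane protein of apical protrusions and is used to sort neural stem cells. *Prom1* (chromosome 5, 44384860 to 44492975) was at 38.5, 40.6, 30.7 and 39.2 FPKM. Its levels varied least of the 10 genes, with the highest library 1.32 times the lowest. E14 CTL stood below the other 3 libraries, which gave a genotype ratio of 1.27 at E14 and of 1.05 at E11. Its paralogue *Prom2* averaged 0.0689 FPKM.

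Taking the 10 genes together at E14, 9 as deposited (7 at equal library sums) were higher and 1 (*Vim*) lower in *Stat3* cKO, and their log2 ratios had a median of 0.37. Of the 12430 entries that averaged at least 1 FPKM and had a ratio, 39.9% were higher in *Stat3* cKO and 60.1% lower, and the median was -0.079. None of the 10 genes reached a 2-fold ratio in either direction, which 1.85% of all entries did upwards and 1.69% downwards. The ratios nearest to 2-fold were those of *Msi1* (log2 0.73), *Sox3* (0.62), *Sox2* (0.46) and *Sox1* (0.44), of which *Msi1* and *Sox3* were past 1.5-fold, as were 5.82% of all entries. *Pax6* at 0.38 and *Prom1* at 0.35 followed. *Fabp7* (0.18), *Nes* (0.03) and *Slc1a3* (0.01) were closer to equal levels, and *Vim* was at -0.31. With each library scaled to the same sum, *Nes* and *Slc1a3* lay at -0.03 and -0.06, and the other 8 genes kept their direction under all 5 alternatives of scaling and pseudocount. At equal sums the median of the 10 genes was 0.30 and that of all entries -0.15.

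At E11, 9 of the 10 genes as deposited, but 5 under upper-quartile scaling, were higher in *Stat3* cKO, here with *Slc1a3* below its control, and the background was different: 61.8% of all entries were higher, 38.2% were lower and their median log2 ratio was 0.059. The median of the 10 genes was 0.13. No gene reached 2-fold, against 0.209% of all entries upwards and 1.12% downwards. *Sox3* (log2 0.74) and *Nes* (0.62) were past 1.5-fold, as were 2.18% of all entries, and they lay above 99.2% and 98.3% of the measured entries. *Sox1* followed at 0.39 and *Fabp7* at 0.20, while *Slc1a3* at -0.39 lay among the lowest 7.02% of entries. The remaining 5 genes lay between 0.04 and 0.14. With libraries scaled to the same upper quartile, *Sox2*, *Vim*, *Prom1* and *Msi1* fell on the other side of equality at -0.01, -0.06, -0.05 and -0.08, which left 5 of 10 higher. The median of the 10 genes was then 0.0043 and that of all entries -0.065, so the background moved as well. *Msi1* was also at -0.02 once the median of all entries was set to 0. The direction at E11 thus depended on the scaling for 4 of the 10 genes.

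**Figure D3:**
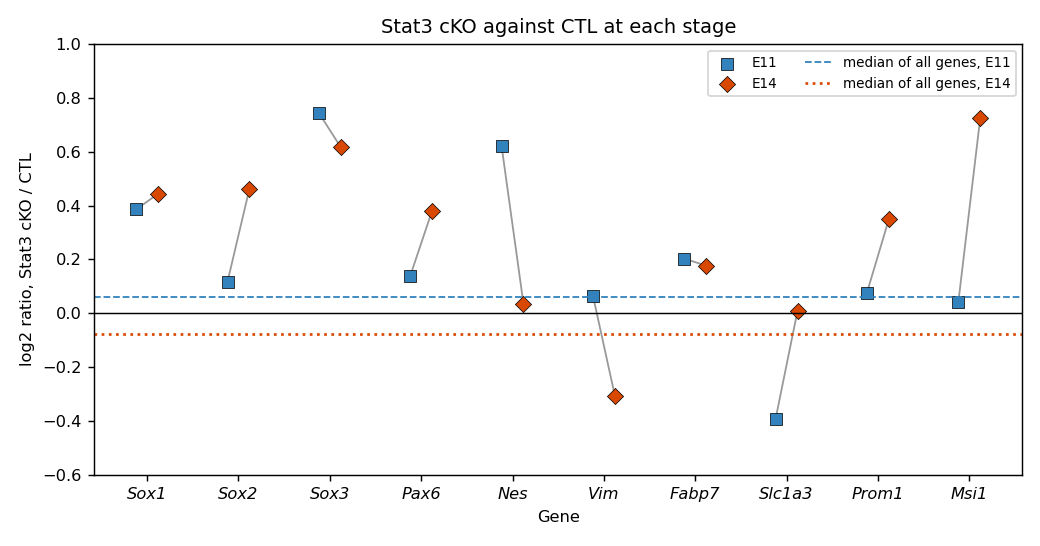
Log2 ratio of FPKM in *Stat3* cKO to CTL for each of the 10 genes at E11 (squares) and E14 (diamonds), as deposited, with lines joining the stages and dashed or dotted lines at the median of all measured entries. At both stages 9 of 10 points lie above 0, with *Slc1a3* below it at E11 (-0.39) and *Vim* below it at E14 (-0.31), but 4 of the E11 directions turn under upper-quartile scaling and 2 of the E14 directions (*Nes*, *Slc1a3*) turn when libraries are scaled to the same sum.

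The genotype ratio differed between the stages for some genes and hardly for others, a difference that was not tested. Subtracting the log2 ratio at E11 from that at E14 gave 0.68 for *Msi1*, 0.40 for *Slc1a3*, 0.35 for *Sox2*, 0.27 for *Prom1*, 0.24 for *Pax6* and 0.06 for *Sox1*. The subtraction gave -0.03 for *Fabp7*, -0.13 for *Sox3*, -0.37 for *Vim* and -0.59 for *Nes*. The 2 filament genes thus had the lowest differences of the 10. The count above 0 was 6 of 10 as deposited, against 37.9% of 12419 entries and an all-entry median of -0.12, but it ranged from 3 of 10 when each library was scaled to the same sum, through 7 with that done after leaving out the 10 highest entries, to 8 with the median of all entries set to 0 or with upper-quartile scaling. Each of these scalings shifts the difference of every entry by the same amount. The share over all entries thus shifts too, and 37.9% holds only as deposited. The differences share all 4 libraries with the ratios above and are no further evidence.

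Between the stages the 10 genes fell into the same 2 groups in both genotypes as deposited. *Sox2*, *Sox3*, *Nes* (except at equal sums in *Stat3* cKO, log2 -0.04), *Vim*, *Fabp7* and *Slc1a3* were higher at E14, and *Sox1*, *Pax6*, *Prom1* and *Msi1* lower. The background was 60.5% higher and 39.5% lower in CTL, and 53.3% higher and 46.7% lower in *Stat3* cKO. In CTL 4 genes were at least 2-fold higher (*Sox3*, *Nes*, *Vim*, *Fabp7*), against 14.6% of all entries, and *Pax6* and *Msi1* were at least 2-fold lower, against 12.5%. In *Stat3* cKO 5 genes were at least 2-fold higher (*Sox2*, *Sox3*, *Vim*, *Fabp7*, *Slc1a3*), against 10.1%, and *Pax6* and *Msi1* were again at least 2-fold lower, against 11.7%. The median log2 ratio of the 10 genes was 0.78 in CTL and 0.93 in *Stat3* cKO, beside 0.21 and 0.058 over all entries. With libraries scaled to the same sum the medians were 0.23 and 0.068, beside -0.34 and -0.80 over all entries, and 1 gene (*Fabp7*) was at least 2-fold higher in each genotype.

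The sizes of the stage ratios leaned on the scaling more than their directions. As deposited, the log2 ratio in CTL ran from -2.32 for *Msi1* and -1.60 for *Pax6* through -0.44 for *Sox1* and -0.33 for *Prom1* to 0.69 for *Sox2*, 0.87 for *Slc1a3*, 1.37 for *Sox3*, 1.40 for *Nes*, 1.42 for *Vim* and 3.34 for *Fabp7*. In *Stat3* cKO the lower genes were *Msi1* at -1.63, *Pax6* at -1.36, *Sox1* at -0.39 and *Prom1* at -0.05. The higher genes in that genotype were *Nes* at 0.81, *Sox2* at 1.04, *Vim* at 1.05, *Sox3* at 1.24, *Slc1a3* at 1.28 and *Fabp7* at 3.32. The E14 libraries had the larger FPKM sums, and scaling every library to 1000000 moved the median of all entries to -0.34 in CTL and -0.80 in *Stat3* cKO. Under it *Fabp7* was still at 2.79 and 2.46, whereas *Vim* was at 0.86 and 0.19 and *Sox2* at 0.14 and 0.18. The 9 genes other than *Nes* kept their direction in both genotypes under every scaling tried, and *Nes* turned to -0.04 in *Stat3* cKO when libraries were scaled to the same sum. Relative to the median of all entries, which no scaling alters, *Fabp7* stood 3.13 above it in CTL and 3.26 in *Stat3* cKO on the log2 scale, and *Msi1* stood at -2.53 and -1.69. Marker levels of other cells also differed between the stages. Oligodendrocyte lineage markers summed to 67.4 and 87.8 FPKM at E11 and to 560 and 532 at E14, led at E14 by *Olig1* and *Olig2*, whereas *Pdgfra*, which made up most of the E11 sums at 53.1 and 68.7, was at 35.9 and 61.2. Mesenchymal markers were lower at E14, as given above, and the part of these lists in the stage ratios was not tested. The stage comparisons share their libraries with the genotype comparisons.

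**Figure D4:**
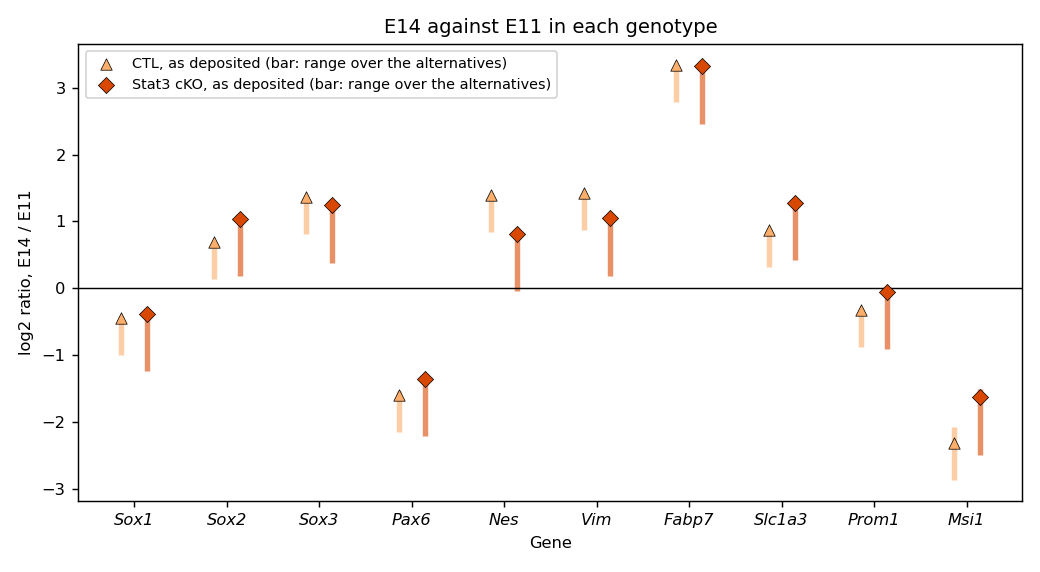
Log2 ratio of FPKM at E14 to E11 for each of the 10 genes in CTL (triangles) and *Stat3* cKO (diamonds), with bars for the range over the 4 other scalings and the pseudocount. *Fabp7* is highest in both genotypes (3.34 and 3.32 as deposited), *Msi1* lowest (-2.32 and -1.63), and only the *Nes* bar in *Stat3* cKO crosses 0.

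A list of 24 other genes of radial glia was set beside the 10, and each of the 24 averaged at least 1 FPKM. At E14, 16 were higher and 8 lower in *Stat3* cKO, against 39.9% and 60.1% of all entries, with 15 to 18 of the 24 higher over the scalings. Their log2 ratios had a median of 0.25, beside 0.37 for the 10 genes, but a wider span, with 4 genes past 2-fold upwards and 1 downwards. The highest were *Ttyh1*, a membrane protein of progenitors, with 43.1 FPKM in CTL against 150 in *Stat3* cKO (log2 1.80), the endothelin receptor gene *Ednrb* at 162 and 521 (1.69) and the Notch effector *Hes5* at 124 and 294 (1.25). The lowest were *Hopx*, a marker of outer radial glia, at 38.3 and 11.7 (-1.71), the ciliogenic factor *Rfx4* at 13.6 and 7.69 (-0.82) and *Hes1* at 27.3 and 17.2 (-0.67). These 6 kept their direction under every scaling tried. At E11, 17 of the 24 (12 to 21 over the scalings) were higher and 7 lower, against 61.8% and 38.2% of all entries. Their median of 0.11 became -0.01 under upper-quartile scaling and 0.35 at equal library sums, beside 0.059, -0.065 and 0.29 over all entries. None of the 24 reached 2-fold as deposited, but *Dbi* did at equal sums, with a log2 ratio of 1.20. There the highest were *Dbi* (121 in CTL and 237 in *Stat3* cKO, log2 0.96), *Hes5* (0.63) and *Emx2* (0.59), and the lowest *Hopx* (-0.61), *Ptn* (-0.33) and *Hes1* (-0.27). *Hes5* was thus above and *Hopx* and *Hes1* below their controls at both stages. From E11 to E14 the list had a median of 0.63 in CTL and of 0.45 in *Stat3* cKO, beside 0.21 and 0.058 over all entries. The list medians became 0.071 and -0.41 when libraries were scaled to the same sum, beside -0.34 and -0.80 over all entries.

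**Figure D5:**
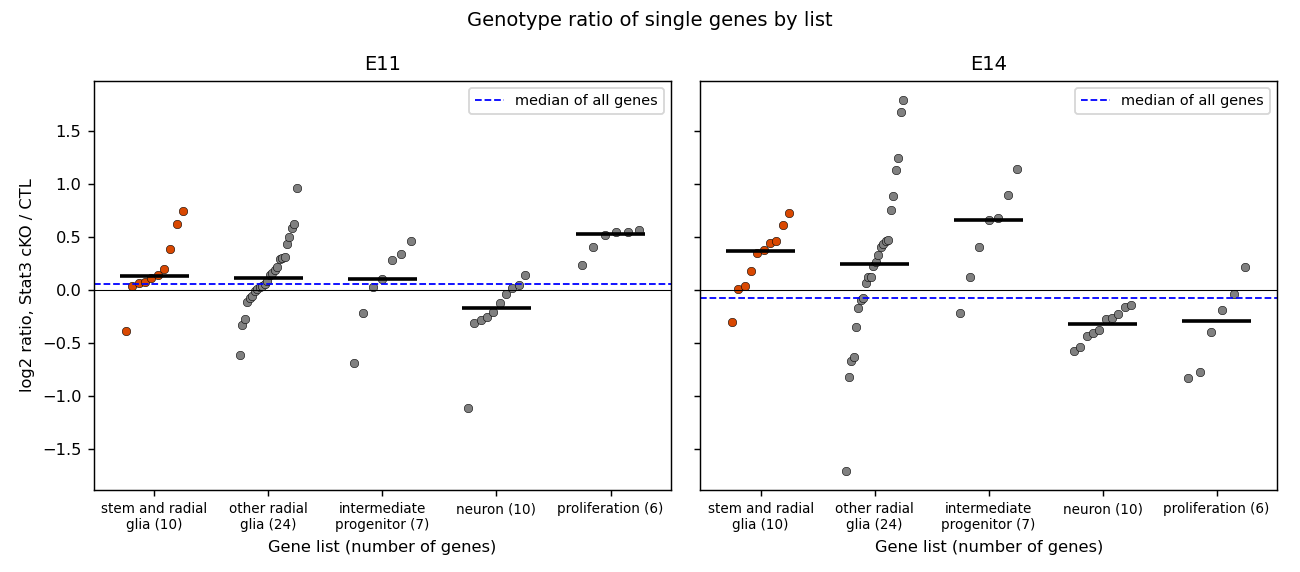
Log2 ratio of FPKM in *Stat3* cKO to CTL, as deposited, for single genes of 5 lists at E11 and E14, with a bar at each list's median and a dashed line at the median of all measured entries. At E14 the median is 0.37 for the 10 stem and radial glia genes and -0.32 for the 10 neuron markers, none of which lies above 0 there, although 1 does under upper-quartile scaling.

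Among lists for the cells that radial glia give rise to, the 10 neuron markers (*Tubb3*, *Dcx*, *Map2* and others) had no member above their control at E14 and a median of -0.32 on the log2 scale, although 1 turned under upper-quartile scaling. Of all entries 39.9% were higher in *Stat3* cKO at E14 and 60.1% lower, with a median of -0.079, and this background holds for each list below. Of 7 intermediate progenitor markers 6 were higher and *Eomes*, at 8.50 and 7.33 FPKM, was lower, but only 5 of the 7 reached 1 FPKM in each E14 library. *Neurog1*, at 0.240 and 0.318 FPKM, and *Nhlh1*, at 0.368 and 0.581, averaged at least 1 FPKM only through their E11 levels. The median of the 7, at 0.66, was the value of *Nhlh1*. With 1 FPKM added to every value the median of these 7 was 0.21. At E11 the medians were -0.17 for neuron markers, which turned to 0.07 when libraries were scaled to the same sum, and 0.10 for intermediate progenitor markers, which turned to -0.02 under upper-quartile scaling. Over all entries the E11 median was 0.059 as deposited, 0.29 at equal sums and -0.065 under upper-quartile scaling. Of 6 astrocyte markers, the 5 that averaged at least 1 FPKM were all higher in *Stat3* cKO at E14 under every scaling, with a median of 0.80, led by *S100b* (1.25), *Aqp4* (1.20) and *Aldh1l1* (0.80), whereas *Gfap* at 0.901 and 0.186 FPKM was lower. Of 5 oligodendrocyte lineage markers 3 were higher (4 under upper-quartile scaling) and 2 lower, with a median of 0.14, from *Sox10* at 1.61 and *Pdgfra* at 0.77 to *Olig2* at -0.32. The part of these glial lists in the E14 ratios of the 10 genes was not tested.

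The SOX family showed whether *Sox1*, *Sox2* and *Sox3* stood apart from their relatives. Of 14 *Sox* genes that averaged at least 1 FPKM, the 3 included, 11 (up to 13 over the scalings) were higher in *Stat3* cKO at E14 and 3 lower, against 39.9% and 60.1% of all entries. The median was 0.47 on the log2 scale, near the value of *Sox2*. *Sox10*, of the oligodendrocyte lineage, was at 6.74 FPKM in CTL against 20.6 in *Stat3* cKO, *Sox8* at 26.3 and 46.3, *Sox21* at 26.3 and 48.8 and *Sox4* at 195 and 317. *Sox14* passed 2-fold at 0.0392 and 0.165 FPKM, levels far below 1 FPKM. *Sox6* at 12.4 and 16.5, *Sox9* at 6.83 and 9.47 and *Sox12* at 3.82 and 4.06 were higher by less than 1.5-fold, and *Sox5* and *Sox13* had log2 ratios of -0.07 and -0.02. *Sox11* was lower in *Stat3* cKO, at 161 and 117. At E11 the median of the 14 was 0.08 as deposited and -0.04 under upper-quartile scaling, beside 0.059 and -0.065 over all entries.

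The profile of each gene over the 4 libraries was compared with those of 9191 entries with a mean of at least 5 FPKM, as the Euclidean distance between log2 levels after each profile was centred on its mean. For *Sox2* the nearest entries were *Eci2* (0.039), *Trak1* (0.041) and *Syt11* (0.052), and for *Sox1* they were *Zfp326* (0.071), *Yipf2* (0.076) and *Gab1* (0.079). *Nes* lay nearest to *Prc1* (0.086), *Tspo* (0.089) and *Cenpa* (0.092), of which *Prc1* and *Cenpa* act in mitosis. *Fabp7* lay nearest to *Ddah1* (0.10), *Mlc1* (0.20) and *Tspan12* (0.22), of which *Ddah1* belongs to the list of 24 above and *Mlc1* is an astroglial membrane protein. *Ddah1* was at 7.88, 9.79, 80.7 and 97.0 FPKM. *Sox3* lay nearest to *Mfsd2a* (0.16), *Gamt* (0.20) and *Ppp1r1a* (0.27), and *Pax6* to *Dbp* (0.085), *Cpq* (0.10) and *Ephb4* (0.13). For *Msi1* the nearest were *Dach1* (0.15), *Angptl2* (0.17) and *Axl* (0.19). *Vim* lay nearest to *Ptges2* (0.038), *Cdkn2d* (0.062) and the joined entry of *Arpc4* and *Ttll3* (0.064). *Slc1a3* lay nearest to *Hint3* (0.056), *Sar1b* (0.11) and *Nlgn1* (0.13), and *Prom1* to *Gsn* (0.044), *Pld3* (0.046) and *Zfp113* (0.049). Over 4 libraries such likeness is a description, since all profiles share the same libraries and their scaling.

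The 10 genes were in general not each other's nearest. No other member stood closer than rank 52 of all entries, which was *Nes* as seen from *Sox3* at a distance of 0.46. The closest pair was *Sox1* and *Prom1* at 0.32, and next came *Vim* and *Slc1a3* at 0.42. *Nes* also lay at 0.48 from *Vim*, *Slc1a3* at 0.53 from *Sox2*, and *Pax6* at 0.56 from *Msi1*. *Fabp7* had its nearest member, *Sox3*, at 2.09, and the most distant pair was *Fabp7* and *Msi1* at 5.32. The 10 markers therefore held several different profiles over these libraries rather than 1.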

How the data were processed

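RNA-seq was done with 1 Illumina library for each of 4 groups (E11 and E14, CTL and *Stat3* cKO). The authors checked reads with FastQC and processed them with TopHat and Cufflinks, and deposited 1 table of FPKM values per library with 21091 entries, each with a locus and a gene symbol or several joined symbols. The submitters' processing notes name Bowtie 0.12.2 and the builds mm8 and mm9 without a role, so loci are printed as listed; the annotation is not given in the sources used here. Read counts were not given, so the depth behind a value is unknown and no counting interval could be computed.

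Ratios were taken of the deposited FPKM with no pseudocount for 12449 entries that averaged 1 FPKM or more, with no ratio where a value was 0, and 2-fold or more was counted as called (Python 3.11.15, numpy 2.4.6, pandas 2.3.3, matplotlib 3.10.9). The calculation was tested on simulated data. All 10 genes were described in every comparison. Also named were family genes averaging 1 FPKM or more, the 3 highest and 3 lowest of the other radial glia genes, entries at a shared locus, and the 3 nearest profiles among entries averaging 5 FPKM or more. Transcript length, exons and GC came from the longest GENCODE M21 protein-coding transcript (91.0% of 12443 symbols matched), and promoters from RefSeq. A comparison of SOXB1 proteins was planned, but protein sequences were not used here. Alternatives were 4 other scalings, a pseudocount of 1, other minimum levels and a 1.5-fold threshold. The rule for the 10 genes uses no measured value, but these genes and the other lists were proposed with earlier results of these data known.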

Additional observations from a re-analysis of the deposited data

Results flagged for a closer look

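For 2 of the 10 genes the genotype ratio lay on opposite sides of equality at the 2 stages, with 1 library behind each value, and the difference between stages was not tested. *Vim* had a log2 ratio of *Stat3* cKO to CTL of 0.07 at E11 and -0.31 at E14, a difference of -0.37, but at E11 it was -0.06 under upper-quartile scaling. *Slc1a3* had a log2 ratio of -0.39 at E11 and 0.01 at E14, a difference of 0.40, but at E14 it was -0.06 when libraries were scaled to the same sum.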

How the results depend on the processing

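No paired analysis was possible because each group has 1 library and the labels carry no replicate numbers, and for the same reason no library could be left out. The median log2 ratio of the 10 genes was counted as moved past 0.1. For E14 against E11 it moved in CTL from 0.78 to 0.57 with the median of all entries set to 0, 0.45 with upper-quartile scaling, 0.23 with each library scaled to the same sum and 0.24 with that done after leaving out the 10 highest entries. In *Stat3* cKO it moved from 0.93 to 0.068 and 0.43 under the last 2. Between genotypes the E11 median moved from 0.13 to 0.0043 with upper-quartile scaling and 0.36 with equal sums, and the E14 median from 0.37 to 0.52 with upper-quartile scaling. Genes past 2-fold between stages went from 6 to 3 in CTL under both sum scalings (1 higher, 2 lower), and in *Stat3* cKO from 7 to 5 with the median set to 0 or upper-quartile scaling (3 higher, 2 lower, without *Sox2* and *Vim*), to 4 with equal sums (1 higher, 3 lower) and to 3 without the 10 highest entries (1 higher, 2 lower). With a 1.5-fold threshold 2 genes were called between genotypes at E11 and 2 at E14, in place of 0. The genes whose genotype ratio was higher at E14 than at E11 went from 6 to 3 with equal sums, 7 without the 10 highest entries and 8 with the median set to 0 or upper-quartile scaling. These scalings move every gene of a library by the same factor, so the shares and medians over all entries move with these values. Of 240 single-gene ratios under the alternatives, 214 stayed on the same side of the 2-fold threshold, with the changes of direction among uncalled ratios given in the comparisons, 18 fell short of it and 8 came past it, 7 of these with the lower threshold. The minimum levels changed no value of the 10 genes. With no replicates and no counts, the error of each ratio is unknown.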
